A study of Rattus norvegicus with 183 samples.

Results

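Brain libraries that held many red blood cell transcripts were compared with libraries that held few. They came from heterogeneous stock rats, an outbred laboratory population. PolyA RNA was sequenced from the posterior part of the ventral tegmental area, where many of the dopamine neurons of the midbrain lie. Of 183 samples described, 31 are labelled as removed, and all others have values. The members were chosen by measured values. Libraries with at least 10 CPM (a gene's counts scaled to a library total of 1000000) of Th, the gene of the rate-limiting enzyme of dopamine synthesis, were ranked by the summed CPM of the alpha-globin genes Hba-a1 and Hba-a2, and the 11 libraries with less Th were not used. The 30 highest are called blood-rich, the 30 lowest blood-poor, and 81 are in neither side, so the members are 60 libraries of 183 samples. All groups share tissue, stock and assay, and the labels used here state no allele, treatment, sex, age, time, perfusion or batch for any of them. The format of the sample identifier is the only label that divides the animals. It was decimal in 9 blood-rich and 13 blood-poor libraries and hexadecimal in 21 and 17 (Fisher exact test, two-sided, p = 0.422). The sides are not treatments. The labels of 5 blood-rich and 4 blood-poor libraries record an identifier changed after a check against genotypes, in 8 of them from an unknown animal. One blood-rich library had over 100 CPM of Slc17a7, the glutamate transporter gene of cortex.

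Hemoglobin, the oxygen carrier of red cells, is built from alpha-globin and beta-globin chains and heme. The youngest circulating red cells, the reticulocytes, still hold globin messenger RNA, so RNA of a whole brain region normally contains some of it from the vessels. Low globin expression has also been described in neurons, dopamine neurons among them. Alas2 encodes the red cell form of the first enzyme of heme synthesis, and Alas1 the form used in other tissues.

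The ranking itself is given as a description. Summed Hba-a1 and Hba-a2 lay between 990 and 4267 CPM in the blood-rich libraries (median 1261), between 283 and 935 CPM in the 81 others (median 451) and between 58.9 and 281 CPM in the blood-poor libraries (median 204). At the lower border the last blood-poor library had 281 CPM and the next one 283 CPM, and at the upper border the values were 935 and 990 CPM. Hba-a1 had medians of 919 and 149.4 CPM in the rich and poor sides and Hba-a2 of 348 and 55.5 CPM. Alpha-globin transcripts were thus present in every library of the poor side. The 250 bases before the start of Hba-a1 and of Hba-a2 are identical at 241 positions, and the split of counts between such near copies is uncertain, which is why their sum was used. Total estimated counts, the number of genes seen, the share of the 20 most abundant genes and the share of ribosomal RNA genes had adjusted p of 0.95 or more between the sides (4 measures, two-sided permutation test). A level of 1 CPM stood for 15.2 to 49.9 estimated counts in the rich and for 15.5 to 41.7 in the poor side. Th lay at medians of 1610 and 1775 CPM.

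The first question was which other genes differ with the blood content of a library. The 4 largest differences were those of Hbb-bs, Hbb, Hbb-b1 and Alas2, all higher in the blood-rich side. All 20 genes of the meningeal fibroblast list rose, as did 10 of 14 mural cell genes of the vessel wall and all 6 perivascular macrophage genes. The neurofilament genes Nefl, Nefm and Nefh fell, and 7 of 12 pan-neuronal genes fell. A total of 2968 of 15544 genes tested passed (19.1%), 2206 of them higher (14.2%) and 762 lower (4.9%) in the blood-rich side (limma, Benjamini-Hochberg adjusted p under 0.05, identifier format as a covariate). Differences are given as log2(CPM + 1), rich minus poor, with the standard error (SE) over 30 libraries a side. Most were small: 0.907% of the genes tested rose by 1 log2 unit or more and 1 gene fell by as much, and the median of all genes was 0.03. Scaling by the median of ratios gave 3394 genes (21.8%), 1790 higher (11.5%) and 1604 lower (10.3%), so the share called higher was 74.3% of calls with CPM and 52.7% with the other scaling. The 2 scalings shared 2552 called genes. In bulk tissue, fewer cells of a type and less RNA per cell cannot be told apart.

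Only 3 genes, Hbb-bs, Hbb-b1 and Alas2, separated the sides completely, with every blood-rich library above every blood-poor one (0.0193% of the genes tested). Alas2 (chromosome X, position 22890650) lay between 7.45 and 37.2 CPM in the rich side (median 11.8), between 1.62 and 8.10 CPM in the other libraries (median 3.98) and between 0.63 and 4.30 CPM in the poor side (median 1.77). Its difference was 2.25 ± 0.12 (SE; limma, adjusted p = 4.95e-24). It was not used in the ranking, so the label of the sides held for a red cell gene that did not define them. Ranked by Alas2 in place of the alpha-globin sum, 29 of the 30 blood-rich and 22 of the 30 blood-poor libraries would be the same.

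The beta-globin genes lie together on chromosome 1. Hbb-bs (position 167631630) had 37.5 to 193 CPM in the rich side (median 57.9) and 2.52 to 12.9 CPM in the poor side (median 8.56), a difference of 2.85 ± 0.12 (adjusted p = 3.28e-28). Hbb-b1 had 7.60 to 82.8 CPM (median 19.7) against 1.11 to 6.19 CPM (median 3.54), a difference of 2.49 ± 0.15. Hbb, the most abundant of them, had 122.2 to 1015 CPM (median 311) against 9.64 to 130 CPM (median 50.9), a difference of 2.67 ± 0.19 (adjusted p = 1.01e-17). For Hbb the sides overlapped slightly, with 29 of 30 blood-rich libraries above the highest blood-poor one. Hba-a3, an alpha-globin gene outside the ranking, was higher by 2.03 ± 0.23, with 27 blood-rich libraries above every blood-poor library and 3 below the blood-poor median. It was chosen to be followed further after its values were seen. As copies of globin genes are near-identical in places, how their reads were shared out is uncertain.

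The starts of 3 genes are shown because the beta-globin copies are compared further on, and Col1a2, a collagen gene of the meninges, also rose without being a red cell gene. Each line holds the 250 bases before the start from RefSeq (GRCr8), 5′ to 3′ on the gene's strand. Hbb-bs is at chr1:167631631-167631880 (-), Hbb-b2 at chr1:167656964-167657213 (-) and Col1a2 at chr4:33518307-33518556 (+). Capitals mark 4 kinds of motif searched on both strands: the letters GATA preceded by A or T and followed by A or G, the letters CACCC, the letters CCAAT, and the letters TATAAA.
Hbb-bs: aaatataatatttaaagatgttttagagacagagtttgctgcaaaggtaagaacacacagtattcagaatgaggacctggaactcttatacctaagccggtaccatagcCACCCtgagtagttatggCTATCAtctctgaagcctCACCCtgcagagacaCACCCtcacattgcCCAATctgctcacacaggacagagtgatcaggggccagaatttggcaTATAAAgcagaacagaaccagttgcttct
Hbb-b2: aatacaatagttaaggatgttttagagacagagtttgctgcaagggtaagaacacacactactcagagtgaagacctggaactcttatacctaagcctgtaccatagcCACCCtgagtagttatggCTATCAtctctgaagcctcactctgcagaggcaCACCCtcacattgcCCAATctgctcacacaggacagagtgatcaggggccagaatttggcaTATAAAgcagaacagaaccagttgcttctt
Col1a2: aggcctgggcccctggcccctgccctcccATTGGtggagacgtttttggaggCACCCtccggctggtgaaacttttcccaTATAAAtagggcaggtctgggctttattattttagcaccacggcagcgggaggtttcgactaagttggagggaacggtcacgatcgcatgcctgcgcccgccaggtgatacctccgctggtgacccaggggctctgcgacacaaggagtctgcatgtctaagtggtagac
A GATA match stood in both globin windows (first base at -123 and -124, counted from the start) and not in that of Col1a2. Each globin window also held a CCAAT and a TATAAA match, the latter with its first base at -29 and -30, and CACCC was found at 3 places in Hbb-bs and at 2 in Hbb-b2. Col1a2 held CACCC once, the CCAAT letters once and also TATAAA once. Such matches are common: among 33469 rat promoter windows of this length, 27.02% held one of the GATA forms, 49.22% CACCC, 34.02% CCAAT and 12.93% TATAAA. These are matches of letters, not measured binding sites.

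A pair of beta-globin copies, Hbbl1 and Hbb-b2, did not pass between the sides, unlike Hbb-bs, Hbb and Hbb-b1. Both were looked at more closely after their values were seen. Their windows are identical over 248 aligned bases, whereas Hbb-bs and Hbb-b2 differ at 11 of 249. Hbbl1 spanned 0 to 613 CPM in the blood-rich libraries (median 143.6) and 0 to 40.8 CPM in the blood-poor ones (median 10.1), and its difference of 1.72 ± 0.78 did not pass (adjusted p = 0.114). Hbb-b2 spanned 0.000224 to 281 CPM (median 18.4) against 1.11e-05 to 29.0 CPM (median 4.63), with 1.40 ± 0.71 (adjusted p = 0.167). Most libraries had one or the other. Counting a copy as present at 5% or more of the summed beta-globin CPM, 67 of the libraries with Th had Hbbl1 only, 61 had Hbb-b2 only, 13 had both and 0 had neither. The 3 patterns occurred in 16, 13 and 1 blood-rich libraries, in 37, 37 and 7 of the libraries in neither side and in 14, 11 and 5 blood-poor libraries. Where Hbbl1 was the only one present it held a median of 38.5% of beta-globin in the rich and 37.1% in the poor side, and Hbb-b2 alone held 21.0% and 21.3%. The patterns were therefore found at every blood level. The share of Hbb also varied with the pattern. For example, Hbb made up 188 of 414 CPM of beta-globin in replicate 1 (Hbbl1 only) and 309 of 467 CPM in replicate 87 (Hbb-b2 only). Summed beta-globin stayed close to proportional to alpha-globin, with medians of 44.5, 43.1 and 45.2 CPM per 100 CPM of Hba-a1 and Hba-a2 in the rich, neither and poor libraries and a range of 25.8 to 71.3 over all.

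**Figure D1:**
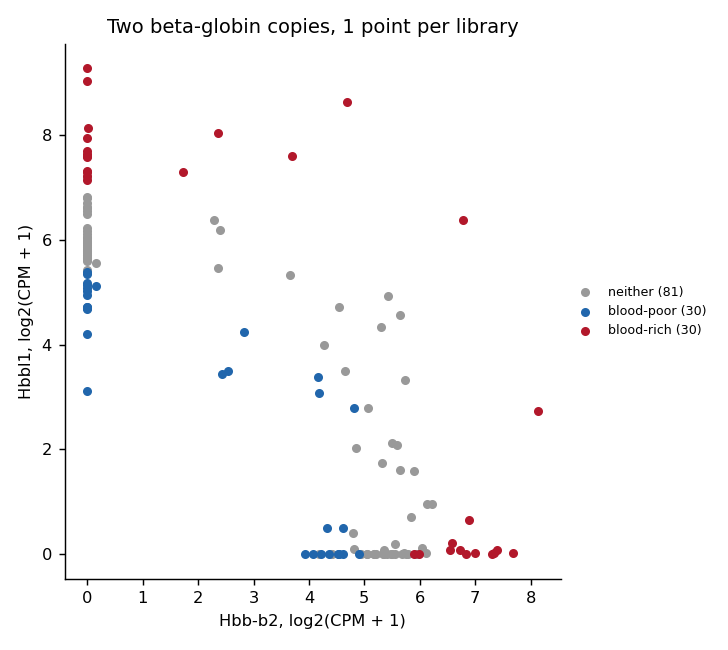
Level of Hbbl1 against Hbb-b2 as log2(CPM + 1), 1 point per library, for 30 blood-rich, 30 blood-poor and 81 other libraries. Most points lie along one of the axes (67 libraries with Hbbl1 only, 61 with Hbb-b2 only), and 13 libraries hold both copies at 5% or more of summed beta-globin.

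Other tested genes of the erythrocyte list moved less or not at all in log2(CPM + 1). Of its 16 members tested, 6 rose and 1 fell, against 14.2% and 4.9% of all genes, and the median difference was 0.28 against 0.03 over all genes tested. Among those that rose are Alas2, Hbb, Hbb-b1, Hbb-bs and Tent5c. Tent5c, a poly(A) polymerase active in red cell precursors, had 6.96 and 4.86 CPM and rose by 0.43 ± 0.07, with 27 of 30 blood-rich libraries above the blood-poor median. Dmtn, which encodes an actin-bundling protein of red cells and neurons, fell by 0.15 (SE 0.05), from a median of 189 CPM in the poor to 162 CPM in the rich side. Its levels exceed those of Alas2 by far in both sides. Sptb (127.03 and 137.5 CPM), Ank1 (137.6 and 157.6 CPM), Add2 (166 and 181 CPM), Bpgm (123.4 and 118.04 CPM) and Slc25a37 (9.62 and 9.64 CPM), which nervous tissue also expresses, did not pass. A further 19 members had too few counts for the test. Without the filter 10 of those passed, all higher, in a fit that called 2985 of 34368 genes (8.69%), 2382 of them higher (6.93%) and 603 lower (1.75%). They include Slc4a1, the anion exchanger of the red cell membrane, with medians of 1.17 and 0.145 CPM, and Nfe2, a transcription factor of red cell and platelet precursors, with 0.489 and 0.0641 CPM. Hemgn had 0.300 and 0.0181 CPM. At such levels the pseudocount of 1 keeps log2(CPM + 1) differences small, so these genes cannot be ranked against Alas2 by them. Rhag, of the Rh complex, had a median of 0 CPM in both.

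Of the 8 genes of general heme synthesis 0 passed, and their median difference was -0.01. Alas1 had medians of 40.86 and 46.95 CPM (adjusted p = 0.143) and Fech, which inserts the iron, 34.0 and 31.9 CPM (adjusted p = 0.127). Of 14 genes of heme and iron handling, 4 rose and 1 fell (median 0.07), against 14.2% higher and 4.9% lower of all genes. Cp, the ferroxidase ceruloplasmin, rose by 1.20 ± 0.21 and Cd163, the hemoglobin scavenger receptor of macrophages, by 0.67 ± 0.13. Ftl1, the ferritin light chain, rose by 0.19 ± 0.06 and did not pass under the median-of-ratios scaling (adjusted p = 0.122). Hmox2, the constitutive heme oxygenase, fell by 0.15 (SE 0.05), and without any 1 of 20 libraries this call was lost (highest adjusted p = 0.0742, without 1 blood-poor library). Hmox1, the inducible heme oxygenase, had medians of 12.7 and 11.6 CPM and did not pass (0.09 ± 0.07, adjusted p = 0.44).

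**Figure D2:**
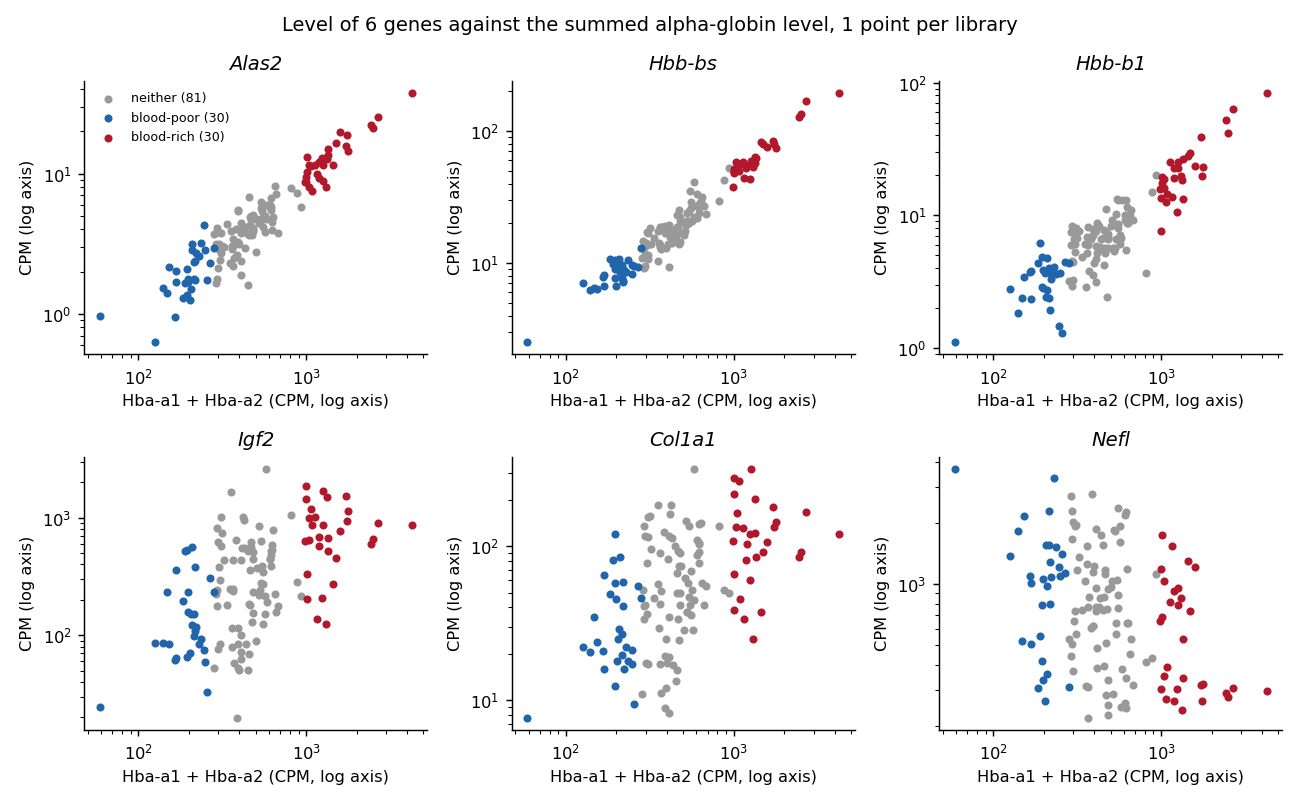
CPM of 6 genes against the summed CPM of Hba-a1 and Hba-a2, both on log axes, 1 point per library. Alas2, Hbb-bs and Hbb-b1 rise with alpha-globin through all libraries, with some spread at a given level. Hbb-b1, for example, has 2.43 CPM in a library with 475 CPM of alpha-globin and 13.4 CPM in one with 544 CPM. The former library has Hbb-b2 only and the latter Hbbl1 only. Igf2, Col1a1 and Nefl spread widely at any blood level and their sides overlap.

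Transcripts of other blood cells were low but moved in the same direction. Pf4, the platelet chemokine, had 1.28 to 6.56 CPM in the rich side (median 2.61) and 0.223 to 1.56 CPM in the poor side (median 0.719). It was higher by 1.14 ± 0.10 (adjusted p = 6.96e-13), and 26 blood-rich libraries lay above every blood-poor one. Itga2b and Itgb3, the subunits of the platelet fibrinogen receptor, rose by 0.37 ± 0.08 and 0.26 ± 0.08, so that 3 of the 6 platelet genes tested rose and 0 fell. Among all genes tested 14.2% were higher and 4.9% lower. Clec1b, a platelet receptor below the filter, had medians of 0.465 and 0.0396 CPM. Ppbp, an abundant chemokine of platelets, was at a median of 0 CPM in both sides (highest 0.0821 and 0.0891 CPM). The summed level of the platelet list was 10.1 to 22.4 CPM in the rich and 8.56 to 15.9 CPM in the poor side.

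White cell genes were mostly below the filter of the test, in which 14.2% of all genes were higher and 4.9% lower. Of the neutrophil list 2 genes were tested: Csf3r rose by 0.19 ± 0.07, a call lost under the median-of-ratios scaling (adjusted p = 0.0759) and without any 1 of 28 libraries (highest adjusted p = 0.0801, without 1 blood-poor library), and Selplg did not pass. Without the filter 6 of the other 19 passed, all higher, such as the calprotectin gene S100a9 with medians of 0.463 and 0.0767 CPM. The fit without the filter called 6.93% of 34368 genes higher and 1.75% lower. Of the 18824 genes below the filter, 500 were higher and 29 lower in it. Of the T and NK cell list 2 of 5 tested rose, Cd4 by 0.77 ± 0.10 and the chemokine gene Ccl5 by 0.71 ± 0.17, and 11 of 14 below the filter passed without it, all higher. Cd3e, a subunit of the T cell receptor complex, had 0.320 and 0.0463 CPM. Of the B cell list 1 of 4 tested rose (Fcmr, 0.36 ± 0.08), and 4 of 5 below the filter passed without it, Cd79a among them with 0.405 and 0.0838 CPM. Cd4 is also made by macrophages in rats, and Fcmr levels were under 2 CPM at the median in both sides. Of 9 monocyte genes 5 rose and 0 fell (median 0.37), led by F13a1 and by the lysozyme gene Lyz2. Lyz2 had medians of 49.4 and 30.6 CPM and a difference of 0.81 ± 0.13. F13a1 is also in the perivascular macrophage list given further on, so the 2 lists are not independent. Whether these transcripts came from blood monocytes or from cells of the tissue was not tested.

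The largest group to move was that of meningeal fibroblasts, the collagen-making cells of the membranes around the brain. All 20 members rose, between 0.96 and 2.24, with a median of 1.54, against 14.2% higher of all genes tested. Igf2, an insulin-like growth factor, had 125.04 to 1852 CPM in the rich side (median 724), 19.9 to 2585 CPM in the libraries of neither side (median 246) and 24.5 to 565 CPM in the poor side (median 112.4). It was higher by 2.24 ± 0.26 (adjusted p = 7.02e-09), and 22 blood-rich libraries exceeded every blood-poor one. Col1a2 had 25.3 to 473 CPM (median 137.9) against 5.55 to 146.6 CPM (median 29.1) and rose by 1.96 ± 0.27. Aldh1a2, which makes retinoic acid, rose by 2.19 ± 0.27 from a median of 4.47 to 30.7 CPM, and the sulfate transporter gene Slc13a4 by 1.92 ± 0.25. The sides overlapped for each of these genes. The summed level of the list was 374.7 to 4357 CPM in the rich side (median 1588) and 157 to 1409 CPM in the poor side (median 357). Its mean log2 level had a mean of 5.20 (SD 0.84) in the rich and 3.61 (SD 0.70) in the poor side, with 14 of 30 blood-rich libraries above the highest blood-poor one.

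Among the 15 genes with the largest rise, 5 were globin genes or Alas2 and 4 belonged to the meningeal list. The others include Sfrp1, a secreted Wnt antagonist (2.10 ± 0.25), Aebp1, a collagen-binding protein (1.89 ± 0.27), the metalloproteinase gene Pappa2 (1.87 ± 0.29), Gstm2, a glutathione transferase (1.86 ± 0.21), and the carboxypeptidase gene Cpz (1.80 ± 0.23).

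Vessel walls and resident macrophages followed. Of 14 mural cell genes 10 rose and 0 fell (median 0.50), against 14.2% higher and 4.9% lower of all genes. The smooth muscle genes were the ones that moved most: Acta2, smooth muscle actin, had 37.3 to 331 CPM (median 102.5) against 15.8 to 135.6 CPM (median 30.6) and rose by 1.56 ± 0.19, Tagln by 1.47 ± 0.19, Myh11 by 1.46 ± 0.22 and Des by 1.53 ± 0.19. Rgs5, a pericyte gene, had medians of 24.1 and 22.7 CPM and did not pass (adjusted p = 0.584). All 6 perivascular macrophage genes tested rose, such as the mannose receptor gene Mrc1 (0.97 ± 0.17) and the hyaluronan receptor gene Lyve1 (0.73 ± 0.13). Of these, F13a1 was also counted in the monocyte list and Cd163 in the heme and iron handling list. The summed level of the macrophage list was 14.7 to 124.7 CPM in the rich and 7.67 to 46.1 CPM in the poor side. Of 7 MHC class II genes 6 rose (median 1.22). Cd74, the invariant chain, had 11.8 to 87.4 CPM (median 28.6) against 3.28 to 41.1 CPM (median 8.03), with all 30 blood-rich libraries above the blood-poor median.

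Endothelium moved less than the mural genes. Of its 19 genes 9 rose and 1 fell, with a median of 0.18, against 14.2% higher and 4.9% lower of all genes. Vwf, the clotting factor carrier of endothelium, rose by 0.51 ± 0.11 and Cldn5, the tight junction gene, by 0.24 ± 0.06, from a median of 88.7 to 105.7 CPM. Plvap, a diaphragm protein of leaky vessels, fell by 0.56 (SE 0.19), and the call was lost without any 1 of 3 libraries (highest adjusted p = 0.0549, without replicate 57, a blood-rich library). Of 14 microglia genes 8 rose and 0 fell (median 0.22), the complement gene C1qa by 0.29 ± 0.07. Of 12 astrocyte genes 7 rose (median 0.18), led by Gfap, the filament of astrocytes, with medians of 1809 and 942 CPM and a difference of 1.06 ± 0.20. Of 12 oligodendrocyte genes 0 passed (median -0.10), with Mbp at 14576 and 14797 CPM.

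**Figure D3:**
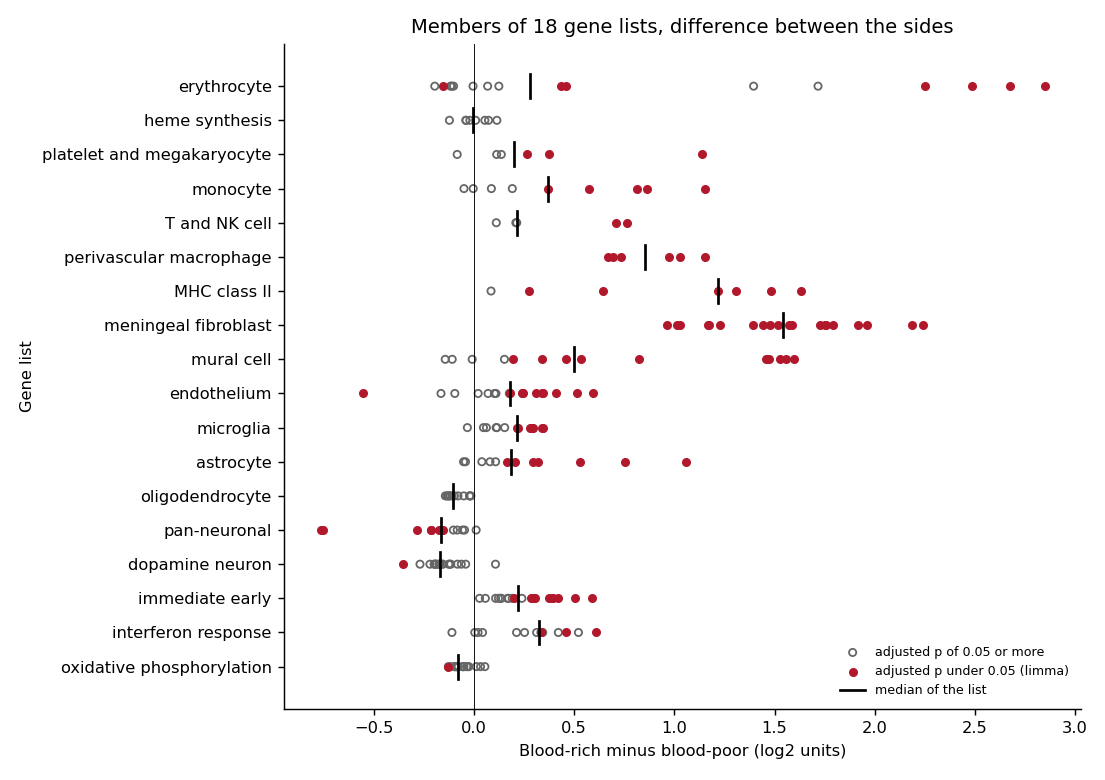
Difference between the sides (log2 units) for the tested members of 18 gene lists, 1 point per gene, filled where the adjusted p was under 0.05, with the median of each list as a bar. All 20 meningeal fibroblast genes lie between 0.96 and 2.24, whereas most of the erythrocyte list lies near 0 with 4 genes above 2.

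Choroid plexus and ependyma, which line the ventricles, gave 2 higher of 5 and 3 higher of 6, small counts beside 14.2% higher of all genes. Ttr, the transthyretin gene of choroid plexus, reached 11987 CPM in a blood-rich library and at most 7.08 CPM in the poor side, with medians of 1.18 and 0.101 CPM. Its call was lost without replicate 21, a blood-rich library (adjusted p = 0.0585). Kcnj13, a potassium channel of choroid plexus and meninges, rose by 1.35 ± 0.23 with medians of 3.38 and 0.810 CPM.

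Neurofilament genes and some other genes shared by most neurons fell in the blood-rich side. In each list of a single neuron type at most 1 gene was called lower. The median of the dopamine neuron list was nevertheless -0.17, as low as that of the pan-neuronal list. Of 12 pan-neuronal genes 7 fell and 0 rose (median -0.17), against 4.9% of all genes lower. Of these 7 calls 3 were lost without any 1 of several libraries, Eno2 (5 libraries, highest adjusted p = 0.0636), Rbfox3 (14 libraries, 0.0723) and Tubb3 (6 libraries, 0.0663). Nefl, the light chain of neurofilament, had 239 to 1756 CPM in the rich side (median 463), 219 to 2794 CPM in the libraries of neither side (median 758) and 265 to 3690 CPM in the poor side (median 1088). It fell by 0.77 (SE 0.24, adjusted p = 0.0162), and 25 of 30 blood-rich libraries lay below the blood-poor median. The medium chain gene Nefm fell by 0.75 (SE 0.24) and the heavy chain gene Nefh by 0.73 (SE 0.26). Snap25, a protein of synaptic vesicle fusion, fell by 0.28 (SE 0.07), from a median of 1747 to 1390 CPM. The sides overlapped for all 4.

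The 15 genes with the largest fall lay between -1.12 and -0.57 and include C1ql2, C1ql4, Scn4b, Mdfic2, Nefl, Nefm, Nefh, Syt2, Vwa7, Cabp7, Comp, Kcns3, Htr1d and Vamp1. C1ql2, a secreted synapse-binding protein, fell by 1.12 (SE 0.38) from a median of 50.7 to 23.1 CPM. The sodium channel subunit gene Scn4b fell by 0.88 (SE 0.31). Syt2 and Vamp1, proteins of transmitter release, fell by 0.71 and 0.57. These calls are close to the threshold, and 5 of the 15 were lost without 1 library. They were C1ql2 (highest adjusted p = 0.0536, without replicate 57), Scn4b (0.063, without replicate 41), Nefh (0.065, without replicate 25), all blood-rich libraries, and Cabp7 (0.0578) and Comp (0.0649), each without 1 blood-poor library. None of the 15 largest rises was lost this way.

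Of 19 dopamine neuron genes 0 rose and 1 fell, a share close to the 4.9% of all genes lower, with a median of -0.17. Th differed by -0.17 ± 0.12 (adjusted p = 0.365) and the dopamine transporter gene Slc6a3 by -0.27 ± 0.17 (adjusted p = 0.288), with medians of 774 and 875 CPM. Foxa2, a transcription factor of these neurons, fell by 0.36 (SE 0.12), a call lost without any 1 of 2 libraries (highest adjusted p = 0.053, without replicate 25, a blood-rich library). Other neuron types had positive medians over both identifier formats together. Only the interpeduncular and habenular list also had positive medians within each format, close to 0 in hexadecimal libraries. Within decimal and within hexadecimal libraries the medians were 0.40 and -0.02 for GABA and 1.21 and -0.14 for serotonin neuron genes. They were 0.82 and -0.03 for glutamate neuron genes and 0.44 and 0.02 for interpeduncular and habenular genes. Of 8 GABA neuron genes 0 passed (median 0.13), of 5 serotonin neuron genes Gata2 rose and 0 fell (median 0.44), and of 6 interpeduncular and habenular genes 0 rose and Pou4f1 fell (median 0.23). The 3 glutamate neuron genes ran from -0.54 to 0.69 (median 0.28), with 1 fall. That gene, the glutamate transporter gene Slc17a6, fell by 0.54 (SE 0.16) from a median of 168.5 to 114.4 CPM, by 1.12 within decimal and by 0.22 within hexadecimal libraries, a difference between formats that did not pass the test given further on.

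**Figure D4:**
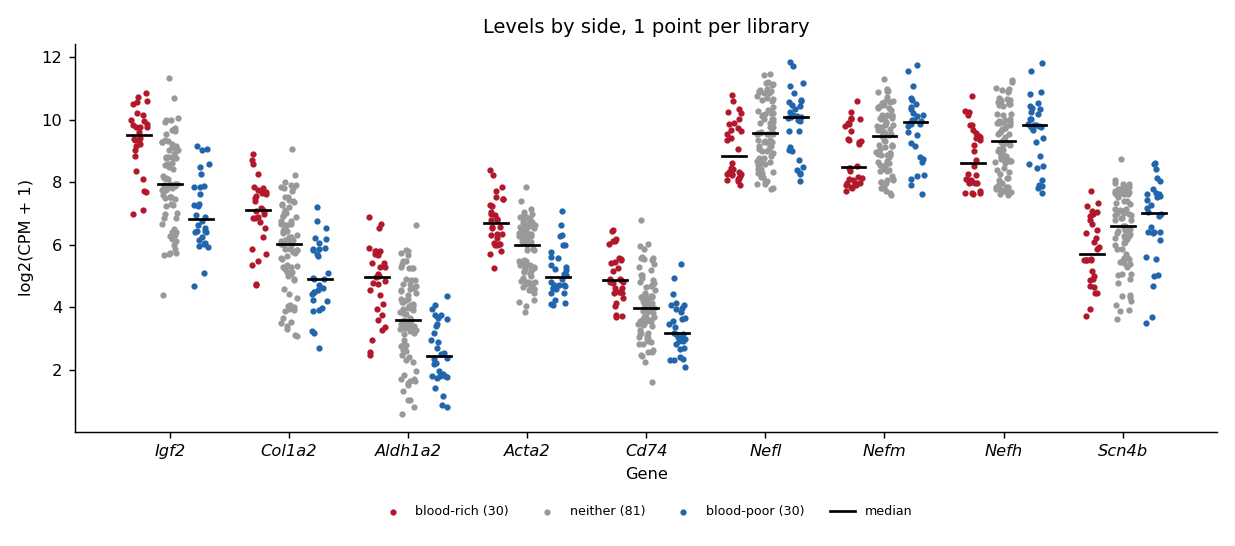
Level as log2(CPM + 1) of 9 genes in the blood-rich (30), other (81) and blood-poor (30) libraries, 1 point per library with the median as a bar. The medians of Igf2, Col1a2, Aldh1a2, Acta2 and Cd74 step down from the rich to the poor side and those of the neurofilament genes Nefl, Nefm and Nefh and of Scn4b step up, with overlap between the sides for each gene.

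Response genes were examined as lists too, and their counts stand beside 14.2% higher and 4.9% lower among all genes tested. Of 20 immediate early genes 10 rose and 0 fell (median 0.22), Klf2 (0.42 ± 0.10) and Atf3 (0.39 ± 0.08) among the rises. Fos, Fosb, Egr1, Arc and Nr4a1 were among the 10 that did not pass. Of 13 glucocorticoid response genes 3 rose and 1 fell, and both metallothionein genes were among the rises, Mt1 by 0.78 ± 0.13 and Mt2A by 0.67 ± 0.13. Of 10 heat shock genes Hspb1, a small chaperone, rose by 1.01 ± 0.14 while Hspa8, Hsph1 and Hspd1 fell. Hspa8, the constitutive chaperone, fell by 0.16 (SE 0.04). Of 14 interferon response genes 3 rose (median 0.32), Bst2 by 0.61 ± 0.13. Of these, 2 passed under the median of ratios, and Ifi44 lost the call without any 1 of 35 libraries (highest adjusted p = 0.0848). The summed level of that list was 169 to 398 CPM in the rich side, and 1 blood-poor library had the highest value, 1871 CPM, in a side with a median of 196 CPM. Of 15 hypoxia genes 0 rose and 2 fell (Bnip3 and Egln3), of 21 nuclear oxidative phosphorylation genes 0 rose and 1 fell, and of 20 cytosolic ribosomal protein genes 3 rose (median 0.10), a share close to the 14.2% of all genes higher. Under the median of ratios 1 of these 3 passed, and Rpl13 and Rplp1 lost the call without any 1 of 29 and of 3 libraries (highest adjusted p = 0.0809 and 0.0585). In all, 17 called list members lost the call without 1 library. The ones not named so far are Egfl7 of endothelium (30 libraries), Trem2 of microglia (36 libraries), Maff of the immediate early genes (30 libraries), Rsph1 of ependyma (21 libraries), Pou4f1 (14 libraries) and Tsc22d3 of the glucocorticoid response (4 libraries).

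The libraries in neither side gave a test that the choice of sides had not used. In 80 of them with a decimal or hexadecimal identifier, each gene was fitted against log2 of the summed alpha-globin CPM. Only 4 genes passed (0.0257% of 15544; 646 at an unadjusted p under 0.05): Hbb-bs, Hbb, Alas2 and Hbb-b1. All 4 were also called between the sides. Per doubling of alpha-globin, Hbb-bs rose by 0.99 ± 0.07 log2 units in these libraries, Hbb by 1.06 ± 0.15, Alas2 by 0.69 ± 0.08 and Hbb-b1 by 0.64 ± 0.11. Within the 60 side libraries the same slopes were 1.00 ± 0.02, 0.95 ± 0.05, 0.79 ± 0.02 and 0.88 ± 0.04. For a gene far above 1 CPM, a slope of 1 means a level proportional to alpha-globin. At a few CPM the pseudocount of 1 lowers the slope of a proportional gene below 1. The slopes of Alas2, Hbb-b1 and Pf4 therefore do not show whether these genes were proportional to alpha-globin. Pf4 had a slope of 0.34 ± 0.10 in the libraries of neither side (unadjusted p = 0.0012) and did not pass.

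The other groups did not pass there. For the 20 meningeal genes 0 passed, with a median slope of 0.29 against 0.01 over all genes. Igf2 had 0.55 ± 0.36 in these libraries and 0.75 ± 0.09 in the side libraries, and Nefl -0.49 ± 0.26 and -0.31 ± 0.08. The alpha-globin range is narrower in the libraries of neither side and the errors larger. A test of the difference between the slopes called 0 genes (limma; 639 at an unadjusted p under 0.05), so no gene was shown to differ between the 2 sets of libraries. This test was chosen after seeing the data.

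Because the meningeal list moved with the sides, the comparison was repeated with its mean log2 level as a covariate. Of the 2968 genes 8 passed with it too, and 3 others appeared, 11 in all (0.0708%; 10 higher and 1 lower; 3573 at an unadjusted p under 0.05). The 8 are Hbb-bs (2.72 ± 0.17), Hbb-b1 (2.26 ± 0.21), Hbb (2.17 ± 0.25), Alas2 (2.11 ± 0.16), Hba-a3 (1.77 ± 0.32), Pf4 (0.89 ± 0.14), the cell cycle phosphatase gene Cdc25b (0.50 ± 0.08) and Ybx3, a cold shock domain protein that binds RNA (0.46 ± 0.08). The values of the globin genes and Alas2 stayed near those without the covariate. Of the 3 platelet genes called between the sides, Pf4 passed with it and Itga2b and Itgb3 did not. The 3 others are Rhog (0.41 ± 0.09), LOC134479111 (0.49 ± 0.10) and Tlcd5 (-0.59 ± 0.12), which had not passed before. Cdc25b, Ybx3 and these 3 were named after their values were seen.

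In the other lists 0 members passed with that covariate. Igf2 went from 2.24 to 0.26 ± 0.13 and Col1a2 from 1.96 to -0.15 ± 0.10, which the covariate makes by construction since both are in the list. Acta2, which is not, went from 1.56 to 0.31 ± 0.16, Cd74 from 1.63 to 0.40 ± 0.18, Mrc1 from 0.97 to -0.18 ± 0.12 and Nefl from -0.77 to -0.07 ± 0.32. The median over the mural list was -0.05, over the perivascular macrophage list -0.08 and over the pan-neuronal list -0.03. Other medians did not go to 0: that of the choroid plexus list went from 0.40 to 0.44, of the interferon response list from 0.32 to -0.32, of the glutamate neuron list from 0.28 to -0.36 and of the interpeduncular and habenular list from 0.23 to -0.20. The SE grew from 0.12 to 0.16 for Alas2 and from 0.24 to 0.32 for Nefl. Meningeal and alpha-globin levels moved together over the sides, and their parts in the other differences cannot be told apart.

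**Figure D5:**
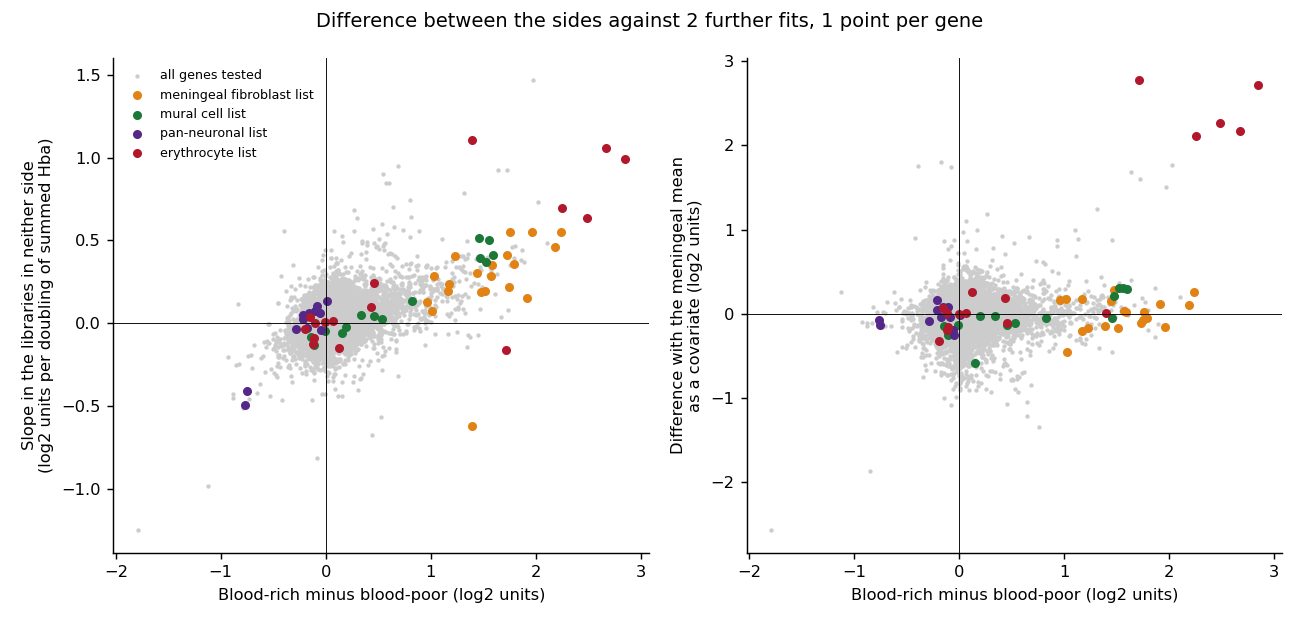
Each point is a gene, with the difference between the sides (log2 units) on the x axis. The y axis shows the slope per doubling of summed alpha-globin in the libraries of neither side (left) or the difference with the meningeal mean as a covariate (right). The globin genes and Alas2 stay high in both panels, and the meningeal list lies near 0 on the right.

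The difference was also taken within each identifier format. Within decimal libraries 1306 genes passed (8.4%) and within hexadecimal libraries 1240 (7.98%), and 570 passed in both with the same direction. Alas2 differed by 2.53 and 2.10 and Igf2 by 2.14 and 2.30 in the 2 formats. A test of the side by format interaction called 0 genes (limma; 735 at an unadjusted p under 0.05). Animals that express the X inactivation gene Xist above the Y-linked Ddx3y were 10 of 30 in the rich and 17 of 30 in the poor side. Xist and Ddx3y did not pass between the sides (adjusted p = 0.255 and 0.101). With the Xist level as a covariate, an alternative chosen after seeing the data, 2930 genes passed. Without the 9 libraries with a changed identifier 1885 genes passed, and 27 of the 110 genes followed across settings lost the call (C1ql2, Scn4b, Nefh, Vwa7, Cabp7, Comp, Csf3r, Dmtn, Egfl7, Eno2, Foxa2, Ftl1, Gata2, Hmox2, Ifi44, Itgb3, Maff, Plvap, Pou4f1, Rbfox3, Rpl13, Rplp1, Rsph1, Trem2, Tsc22d3, Ttr and Tubb3). Alas2 then differed by 2.25, Igf2 by 2.15 and Nefl by -0.75 (limma, adjusted p = 0.0395 for Nefl). Without the library with over 100 CPM of Slc17a7 2955 genes passed.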

How the data were processed

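PolyA RNA libraries of 1 tissue were quantified by the authors with kallisto 0.48, per the submitters' processing notes. The deposited values are on a log2 scale. They were read as log2(estimated count + 1), a unit taken from the values, since 55.7% of those under 100 came back from the log as whole numbers to within 0.001. No label states the genome build (not given in the sources used here). Of 38278 genes matched by symbol to the gene table of GRCr8, a share of 99.98% have a position that is an end of that gene. Values were back-transformed, scaled to CPM per library and tested as log2(CPM + 1), pseudocount 1, in genes with a mean of at least 1 over the libraries with Th (15544 of 38354), with limma 3.58.1 (R 4.3.3) and Benjamini-Hochberg adjustment. P-values measure the spread between these samples. One library of another identifier format, in neither side, was dropped from the slope fit. On simulated data with 100 genes shifted by 0.5 and 100 by 1 log2 unit, the test between the sides found 96 and 100 of them, with 8 false calls among 15544 genes. Whether these figures hold for the measured libraries was not tested. The members and the 34 gene lists were chosen with earlier results of these data known. Named genes are the 15 largest and 15 most negative differences among called genes that moved the same way in either identifier format, members of the lists, and genes on which a result turns. Alternatives were other pseudocounts, filters, scalings, covariates, formats, side sizes, a ranking by Alas2, and leaving out libraries. Promoter sequences are from RefSeq, where 27457 of the 38354 genes matched. Results for a few genes that the rule would name are not reported here.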

Additional observations from a re-analysis of the deposited data

How the results depend on the processing

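The count of 2968 called genes stayed within 1.5 times under a pseudocount of 0.1 (2961), no filter (2985), a mean of at least 3 (1999), median-of-ratios scaling (3394), no covariate (3071), log2 total counts (2989) or Xist (2930) as a covariate, 40 libraries a side (2364), a ranking by Alas2 (4320) and without the library with over 100 CPM of Slc17a7 (2955). Leaving out each of the 60 libraries in turn gave 2568 to 3446, an alternative chosen after seeing the data. It was lower with decimal identifiers only (1306), hexadecimal identifiers only (1240), with 20 libraries a side (1239) and without the 9 libraries with a changed identifier (1885), each of which has fewer samples, and with the meningeal mean as a covariate (11), where the cause was not tested. Lower calls went from 762 to 276 with decimal and 79 with hexadecimal identifiers and to 89 with 20 libraries a side, so that 78.9%, 93.6% and 92.8% of calls were higher. The 4 slopes in the libraries of neither side were 4 or 5 under the other settings and 2 with Alas2 as the variable. The interaction with identifier format gave 0 under each setting. With the meningeal covariate, genes that had risen turned negative without passing: Col1a2 (-0.15), Aebp1 (-0.12), Pappa2 (-0.28), Bst2 (-0.12), Cd163 (-0.13), Cp (-0.36), F13a1 (-0.28), Gfap (-0.10), Ifi44 (-0.098), Lyve1 (-0.024), Maff (-0.056), Mrc1 (-0.18), Myh11 (-0.053) and Vwf (-0.080). Genes that had fallen turned positive without passing: C1ql2 (0.26), Nefh (0.024), Vwa7 (0.0097), Comp (0.13), Kcns3 (0.045), Htr1d (0.077), Vamp1 (0.088), Dmtn (0.073), Egln3 (0.14), Eno2 (0.088), Tubb3 (0.16), Hmox2 (0.11) and Plvap (0.18). Rhog (0.41) and Tlcd5 (-0.59), near 0 without it, passed with it. Of the 30 largest differences, 15 lost the call with decimal, 15 with hexadecimal identifiers and 15 with 20 libraries a side, and 30 kept call and direction under the median of ratios. No paired analysis was possible because the libraries form 1 group and carry no shared replicate numbers. A level of 1 CPM stands for 15.2 or more estimated counts, and levels under about 0.1 CPM rest on very few counts. Estimated counts of near-identical globin copies depend on how kallisto shared reads between them.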

Other observations

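Genes too low for the filter were also tested without it, and 529 of 18824 passed, 500 of them higher and 29 lower in the blood-rich side (8.69% of all 34368 genes of that fit were called). Lgals5, a galectin of rat reticulocytes, had the largest difference among them. It lay between 1.31 and 9.90 CPM in the blood-rich libraries (median 2.29) and between 0.024 and 1.89 CPM in the blood-poor ones (median 0.330), a difference of 1.39 ± 0.11 (SE; limma, adjusted p = 4.36e-14). It was also the only gene below the filter whose slope passed in the libraries of neither side, with 0.52 ± 0.09 log2 units per doubling of alpha-globin (limma, adjusted p = 0.000272). It was chosen after its values were seen.

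White cell and platelet genes were also among these. Cd52, a surface protein of lymphocytes and other white cells, had medians of 0.444 and 0.0776 CPM, and Clec1b lay above every blood-poor library in 26 of 30 blood-rich ones. Slc4a1 was above the blood-poor median in all 30 blood-rich libraries, yet 1 blood-poor library had the highest value of both sides (4.19 against at most 3.42 CPM). Hbq1b, the theta-globin gene between the alpha-globin copies on chromosome 10, had medians of 0.333 and 0.0537 CPM.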
